A study of Mus musculus with 14 samples.

Results

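The 54 genes described here are those that keratinocytes switch on when they leave the basal layer and harden into a squamous, cornified surface. They were taken by symbol from a table of RNA-seq normalized counts for 56414 mouse genes, with 1 table row per gene and the row of the highest mean used where a symbol had several. All 54 were found, in 53 rows, because Krt6a and Krt6b share 1 row and could not be told apart. By role, they comprise 2 regulators (Sfn and Trp63), 4 desmosomal genes, 7 keratins, 4 suprabasal proteins, 24 precursors of the cornified envelope, 5 genes of the S100-fused type and 8 enzymes. The regulators, desmosomal genes, keratins and suprabasal proteins (17 genes in 16 rows) were treated as early, and the other 37 as late.

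The study asked what oral nicotinamide (NAM, a form of vitamin B3) does to mammary tumors of C57Bl/6 mice, and RNA was sequenced from 14 tumors. In the M/D model, females 6 to 9 weeks old received a 50 mg pellet releasing medroxyprogesterone acetate (MPA, a progestin) over 90 days, and gavages of 200 µL of the carcinogen 7,12-dimethylbenz[a]anthracene (DMBA) at 5 mg per mL. In the AT3 model, cells of AT3, a mouse mammary carcinoma line, were placed under the skin. Treatment began at a tumor size of 0.25 cm2 and consisted of 0.5% NAM in the drinking water for 10 days. There were 4 untreated and 4 NAM-treated M/D tumors, 3 untreated AT3 tumors and 3 NAM-treated AT3 tumors. Both M/D groups carried the MPA pellet and the DMBA exposure, every AT3 tumor came from 1 cell line, and no normal skin or normal mammary gland was among the samples. NAM-treated M/D tumor 1 was run in experiment 2 and the other M/D tumors in experiment 1, whereas all AT3 tumors belonged to experiment 3, so that model, experiment and way of induction cannot be told apart.

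The tumors held 40936868 to 84178009 reads assigned to genes. Luminal epithelial genes, a marker list of 16 that includes Krt8, Krt18 and Epcam, summed to 125904 to 416253 normalized counts in 7 M/D tumors and to 10086 in NAM-treated M/D tumor 1. That tumor also held 435225 normalized counts of 12 precursor B cell genes, against 2660.2 to 6783 in the other M/D tumors. Its markers thus went against its label as a mammary gland tumor, and the counts of members and pathway genes called for NAM in M/D tumors are also given without it.

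In stratified epithelium, basal cells express Trp63, the master regulator of the lineage, and cells moving upward replace basal keratins with Krt1 and Krt10 and reinforce their desmosomes. In the granular layer they make loricrin (Lor), involucrin (Ivl), small proline-rich (Sprr) and late cornified envelope (Lce) proteins, which transglutaminases cross-link beneath the membrane, while filaggrin (Flg) packs the keratin filaments and proteases of the Klk family later release the cells from the surface. Krt6, Krt16 and several Sprr genes are low in resting interfollicular skin and rise in wounds, psoriasis and squamous tumors. Normal mammary epithelium is simple and does not cornify, but mammary carcinomas can contain squamous areas.

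The squamous program ranged from almost absent to abundant among the M/D tumors of both groups. The squamous score, the mean over the 53 rows of log2(normalized count + 1), was 11.77, 3.60, 13.15 and 14.08 in untreated M/D tumors 1 to 4, and 1.83, 11.28, 4.25 and 3.66 in NAM-treated M/D tumors 1 to 4. In decreasing order, the tumors were untreated 4, 3 and 1, then NAM-treated 2, 3 and 4, then untreated 2 and NAM-treated 1. Between the fourth (11.28) and the fifth (4.25) lay the widest gap, while NAM-treated 3 and 4 and untreated 2, at 3.60 to 4.25, lay close together, and untreated 2 passed NAM-treated 4 under 2 other scorings. The groups overlapped, the untreated one averaging 10.65 ± 4.79 (SD, n = 4) and the NAM-treated one 5.25 ± 4.15 (SD, n = 4). In 49 of the 53 rows the 4 highest M/D tumors were the same, untreated 1, 3 and 4 and NAM-treated 2. Members took 5.05% of all normalized counts in untreated M/D tumor 4, and 3.26%, 1.51% and 2.47% in untreated 3, untreated 1 and NAM-treated 2, but 0.109% or less in the other M/D tumors. In tumor RNA of this kind, fewer squamous cells and less RNA per cell cannot be told apart.

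**Figure D1:**
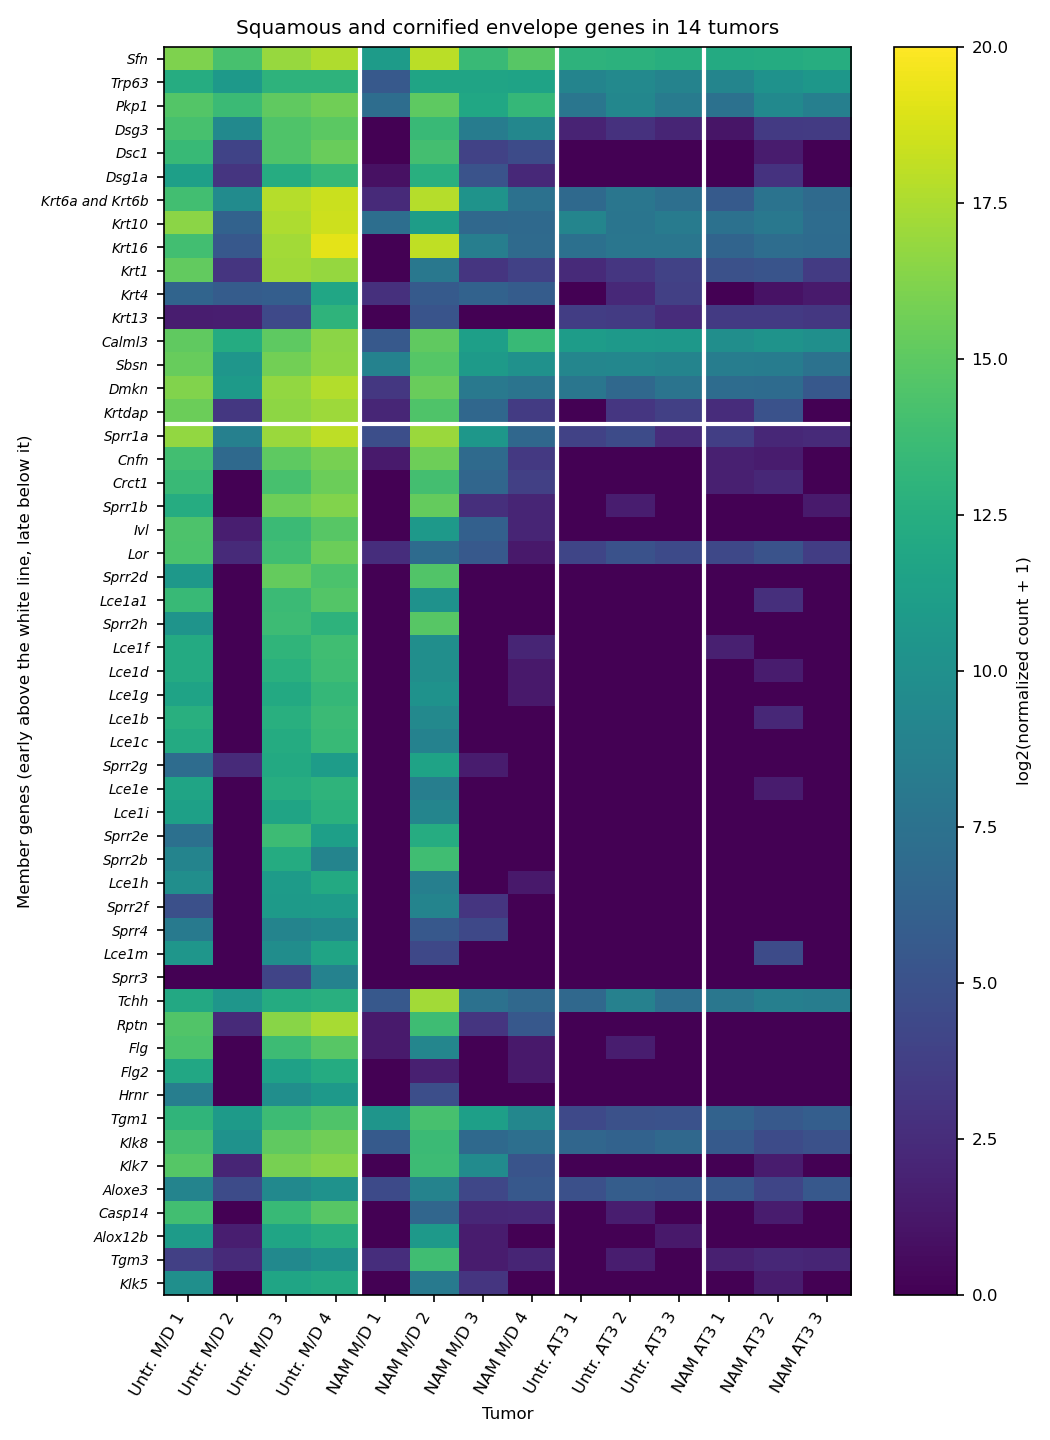
Each cell gives log2(normalized count + 1) of 1 member row (vertical axis) in 1 tumor (horizontal axis), with early members above and late members below the horizontal white line and vertical lines between the 4 groups. Untreated M/D tumors 1, 3 and 4 and NAM-treated M/D tumor 2 are bright over nearly all rows, whereas most late members are at or near 0 in the other 10 tumors.

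Compared with the mean of the early rows, that of the late rows was lowest in 3 M/D tumors, where some early rows were low as well. The mean log2 value of the early rows was 13.25, 7.76, 14.41 and 15.97 in untreated M/D tumors 1 to 4 and 3.55, 13.16, 7.92 and 7.60 in NAM-treated ones. For the late rows it was 11.13, 1.81, 12.60 and 13.26 in untreated tumors and 1.09, 10.47, 2.66 and 1.95 in NAM-treated ones. Late minus early was thus -5.95 in untreated tumor 2 and -5.26 and -5.65 in NAM-treated tumors 3 and 4, against -2.71 to -1.81 in untreated tumors 1, 3 and 4, -2.69 in NAM-treated 2 and -2.46 in NAM-treated 1, where both sets were low. Without the Sprr2 and Lce1 families, many of them at 0 in these tumors, the difference was -4.69 in untreated tumor 2, -3.45 in NAM-treated 3 and -4.46 in NAM-treated 4, against -2.59 to -1.60 in the other 5. Taken between the medians over members it was -7.92, -6.73 and -5.78 in those 3 tumors, against -4.04 to -2.41 in the other 5. Counted by level, a normalized count of at least 100 was reached by 8 of 16 early and 5 of 37 late rows in untreated M/D tumor 2. The same count stood at 11 early and 6 late rows in NAM-treated tumor 3 and at 10 early and 4 late rows in NAM-treated tumor 4. In NAM-treated tumor 1 it was 4 early rows and 1 late row, whereas all 53 rows reached that level in untreated tumor 4. The early rows differed among themselves in untreated tumor 2 and NAM-treated tumors 3 and 4. There Krt1, Dsg1a and Dsc1 were at 34.1 or less, whereas Sfn, Trp63, Pkp1, Sbsn and Calml3 were each at least 1100.6. Late minus early was -5.16 to -4.27 in the AT3 tumors.

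**Figure D2:**
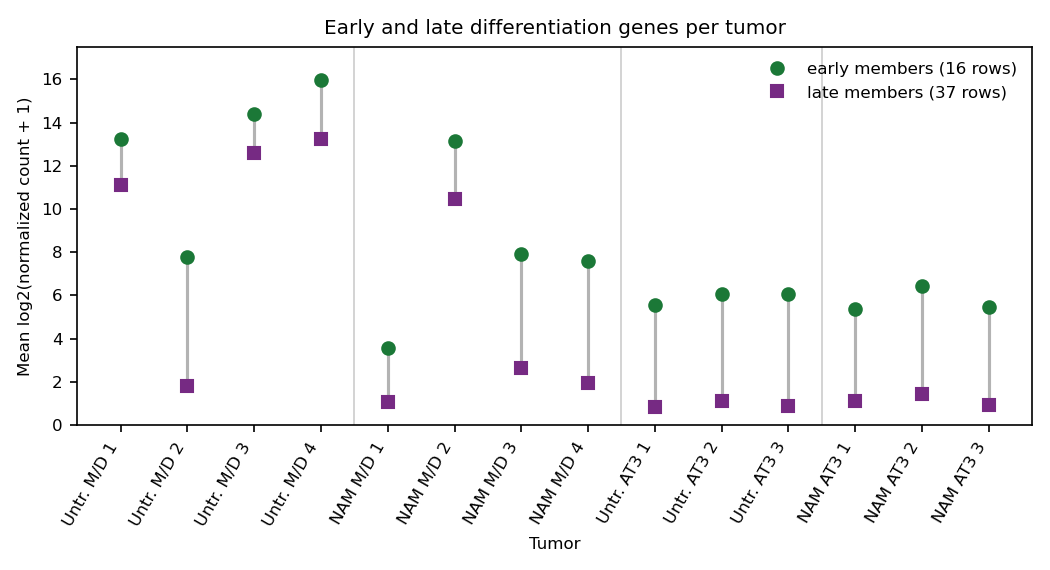
The vertical axis shows log2(normalized count + 1), averaged over the 16 early rows (circles) and the 37 late rows (squares) in each of the 14 tumors on the horizontal axis. Both marks lie above 10 in untreated M/D tumors 1, 3 and 4 and NAM-treated M/D tumor 2, and the late mark lies below 3 in the other 10 tumors.

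Both regulators were expressed in every tumor. Sfn, the 14-3-3 sigma protein of stratified epithelium, had normalized counts of 70800.5, 18506, 122264 and 206237 in untreated and 2013, 255671, 12241 and 28762 in NAM-treated M/D tumors, so that the groups overlapped and NAM-treated tumor 2 was the highest. Trp63 was 5398, 1706, 7661 and 7627 in untreated and 47.5, 3281, 3345 and 3121 in NAM-treated M/D tumors. It was at least 1706 in each M/D tumor except NAM-treated 1, including those in which late members were near 0. NAM-treated 3, with 3345, slightly exceeded NAM-treated 2, with 3281.

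Among the desmosomal genes, which hold neighbouring keratinocytes together, Pkp1 (plakophilin 1) was 25049.5, 12751, 36070 and 52954 in untreated and 139, 33114, 3902 and 9996 in NAM-treated M/D tumors. Dsg3 (desmoglein 3, of the lower layers) was 18368, 731, 23268 and 31546 and 0, 11815, 328 and 627, respectively. Dsc1 (desmocollin 1, of the upper layers) was 11567, 15.2, 23008 and 43905 and 0, 16476, 14.7 and 22.5. For Dsc1, untreated tumor 2 and NAM-treated tumors 3 and 4 lay at 22.5 or less, with the other tumor near 0 being NAM-treated 1. Dsg1a had 10793 in untreated tumor 4 and 7.61 in untreated tumor 2.

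Krt1, the keratin of the first suprabasal cells, was 37258, 7.61, 147490 and 118178 in untreated M/D tumors and 0, 257, 7.36 and 13.6 in NAM-treated ones. Its partner Krt10 was 95006, 79.3, 190149 and 370221 and 149, 2302, 108 and 114. For both genes untreated tumors 1, 3 and 4 were above all 4 NAM-treated tumors, but untreated tumor 2 was within their range or below it. The wound keratins ran otherwise. The shared Krt6a and Krt6b row was 15792, 789, 223921 and 347708 in untreated and 4.24, 227780, 1255 and 171 in NAM-treated tumors, and Krt16 was 15929, 43.5, 153879 and 594577 and 0, 282539, 385 and 119, with NAM-treated tumor 2 the second highest of the 8 for both rows. Krt16 had the widest range of the 53 rows over the M/D tumors, 19.18 on the log2 scale, against a median of 13.21 and a lowest of 5.29 for Tgm1. The keratins of internal squamous linings, Krt13 and Krt4, were high in untreated M/D tumor 4 only, at 8063 and 3564 against at most 36.5 and 84.1 in the other M/D tumors.

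The suprabasal proteins Sbsn (suprabasin) and Dmkn (dermokine) are neighbouring secreted products of the spinous and granular layers. Sbsn was 41423, 1453, 54938 and 99828 in untreated and 469, 26687, 1860.3 and 1101 in NAM-treated M/D tumors, and Dmkn was 77072, 1859, 109288 and 208213 and 8.49, 43384, 275 and 209. Untreated tumors 1, 3 and 4 were the 3 highest for both, NAM-treated 2 came next, and untreated 2 lay within the range of the NAM-treated group. Calml3, a calmodulin-like protein of stratified epithelium, was 36414, 5069.6, 33204 and 92717 and 47.5, 35752, 2520.3 and 11453, respectively. It was at least 2520.3 in all M/D tumors but NAM-treated 1.

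Envelope precursors formed the largest role. Sprr1a, an envelope cross-bridge protein that also responds to stress, was 111270, 415, 127856 and 265939 in untreated and 27.2, 127024, 1508 and 101 in NAM-treated M/D tumors. Sprr1b was 5260.0, 0, 48755 and 75701 and 0, 38649, 5.52 and 3.21, Cnfn (cornifelin) was 16173, 116, 34413 and 62212 and 1.7, 50272, 122 and 8.82, and Crct1 (cysteine-rich C-terminal 1) was 11871, 0, 18903 and 47475 and 0, 16960.2, 93.9 and 12.8. In these 4 genes NAM-treated tumor 2 lay within the range of untreated 1, 3 and 4. Lor, the main protein of the mature envelope, did not share that pattern: it was 21118, 4.35, 14687 and 47469 in untreated tumors and 5.09, 124, 47.9 and 1.6 in NAM-treated ones. Lce1m followed Lor, with 1495, 0, 872 and 3318 and 0, 19.5, 0 and 0. Untreated tumor 2 had no read for Crct1, Sprr1b or Lce1m.

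The genes of the S100-fused type code for long repeat proteins of the granular layer, except for trichohyalin (Tchh), which belongs mainly to the inner root sheath of the hair follicle. Rptn (repetin) was 23954, 4.35, 88619 and 169925 in untreated and 1.7, 14475, 7.36 and 43.3 in NAM-treated M/D tumors. Flg was 20397, 0, 13477 and 29139.7 and 1.7, 587, 0 and 1.6, and Flg2 was 4028, 0, 2715 and 5008 and 0, 2.44, 0 and 1.6. Hrnr (hornerin) was 378, 0, 921 and 1768 and 0, 26.8, 0 and 0. Flg2 was therefore 2715 or more in 3 untreated tumors and at 2.44 or less in the other 5 M/D tumors, among them NAM-treated 2, which had 14475 for Rptn. Tchh ran the other way, at 4354, 1417, 5156 and 6115 in untreated and 44.1, 153860, 173 and 107 in NAM-treated tumors, with NAM-treated 2 far above the other 7.

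Of the enzymes, Tgm1, the membrane-bound transglutaminase of the envelope, was 8464, 1884, 13339 and 23590.2 in untreated and 1377, 18894, 2559.9 and 600.1 in NAM-treated M/D tumors, the narrowest range of any member. The desquamation protease Klk7 was 27118, 3.26, 60731 and 85038 and 0, 13767, 797 and 36.1, and Klk8 was 16396, 1199.5, 36085 and 51285 and 48.4, 12447, 116 and 159. Casp14, the protease that helps process filaggrin, was 16086, 0, 11639.8 and 28659 and 0, 95, 3.68 and 4.01. Tgm3, a transglutaminase of the hair follicle and upper epidermis, was 12.5, 4.35, 715 and 1173 and 5.09, 15082, 1.84 and 3.21, again highest in NAM-treated tumor 2. The lipoxygenase Alox12b, needed for the lipid envelope, ranged from 1963 to 5496 in untreated 1, 3 and 4 and was 1813 in NAM-treated 2, with at most 2.17 in the other 4.

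Within the squamous tumors the members split along 2 lines. NAM-treated M/D tumor 2 had a score (11.28) close to that of untreated tumor 1 (11.77), but 20 of the 53 rows were higher and 32 lower in NAM-treated 2 than in untreated 1. All 6 Sprr2 members were higher in NAM-treated 2, for example Sprr2h at 28206 against 1271 and Sprr2d at 24729.7 against 1613. All 10 Lce1 members were lower, for example Lce1a1 at 1164 against 11435. Averaged on the log2 scale, the Sprr2 rows reached 8.23, 12.99 and 11.59 in untreated tumors 1, 3 and 4 and 12.71 in NAM-treated 2. The Lce1 rows stood at 11.78, 12.14 and 13.24 in those untreated tumors and at 8.92 in NAM-treated 2. In NAM-treated 2, 2 of 16 early rows (Krt1 and Krt10) and 6 of 37 late rows (Casp14, Flg, Flg2, Hrnr, Lce1m and Lor) were at less than 10% of the lowest of untreated 1, 3 and 4.

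NAM-treated tumor 2 also stood apart in hair follicle genes. The 17 hair follicle genes found of 20 listed, mostly keratins of the inner root sheath and hair shaft, summed to 391205 normalized counts there. In the other 7 M/D tumors they summed to between 248 and 8116, and in the AT3 tumors to between 146 and 256. NAM-treated 2 was the highest M/D tumor for 16 of the 17. Krt73 was 68496 in it and at most 1293 elsewhere, and Krt81 was 64125 against at most 47.8. Genes of melanocytes and sebaceous glands, the other cell types of the hair follicle unit, were low: the 10 listed summed to 552 in NAM-treated 2 and to 97.6 to 1192 over the M/D tumors. NAM-treated 2 was the highest M/D tumor for 2 of the 10. These were Dct, at 237 against at most 36.2 in the other M/D tumors, and Elovl3, at 225 against at most 122. Tyr and Tyrp1 were at 0 in NAM-treated 2 and at most 1.70 and 5.52 in any tumor. The part of the hair follicle genes in the levels of Tchh and Tgm3 was not tested.

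**Figure D3:**
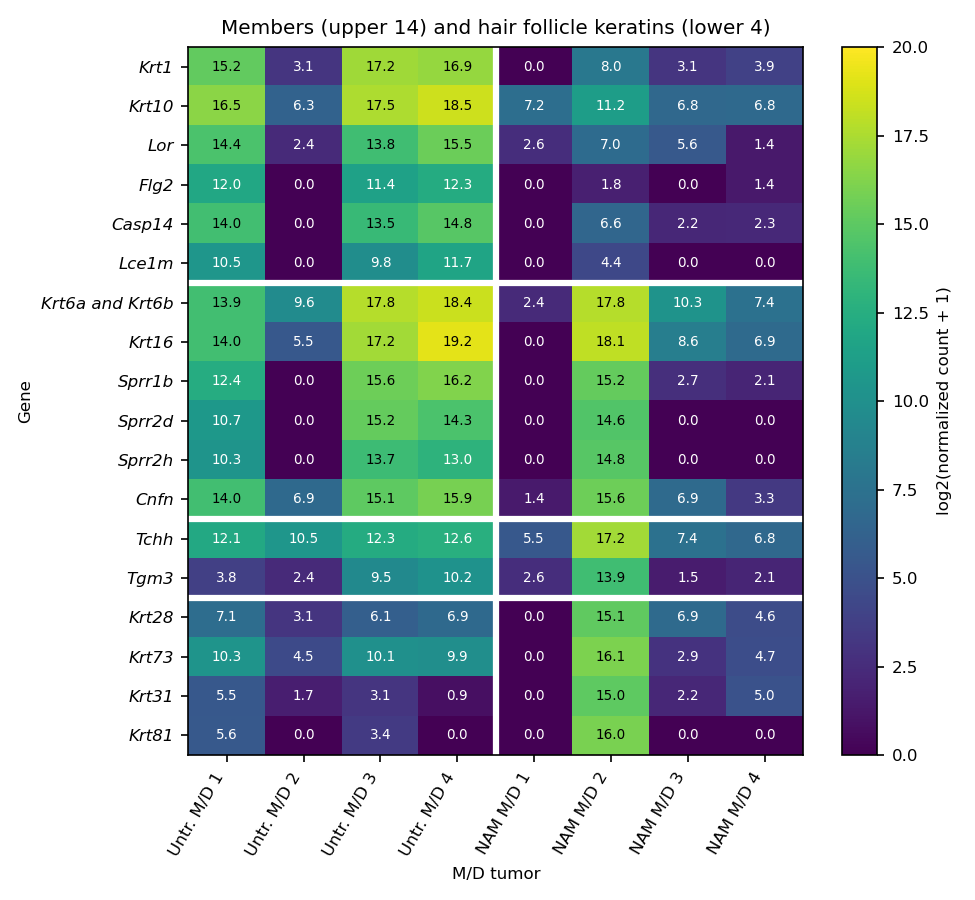
Numbers and colors give log2(normalized count + 1) of 14 member rows and 4 hair follicle keratins (vertical axis) in the 8 M/D tumors (horizontal axis). In NAM-treated M/D tumor 2, Krt1, Lor, Flg2, Casp14 and Lce1m are low, the rows from Krt6a and Krt6b to Cnfn reach values like those of untreated tumors 3 and 4, and Tchh, Tgm3 and the hair keratins are the highest of the row.

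Of the members, 28 lie in the epidermal differentiation complex, a cluster of cornification genes on chromosome 3. In the mm10 coordinates of the table, Lor lay at chr3:92080273-92083142 and Tchh at chr3:93442330-93449077. Between Lor and Tchhl1 the table held 53 rows with a symbol, 28 of them member rows and 25 not. A normalized count of at least 100 in an M/D tumor was reached by 50 of these rows. In 49 of the 50 the 4 highest M/D tumors were untreated 1, 3 and 4 and NAM-treated 2, including all 22 that were not member rows. Among those 22 was a second row of Flg, at most 8838 in an M/D tumor, which was not used for the member. In 46 of the 50 no AT3 tumor reached 10. At the far end of the cluster S100a11 and S100a10 were expressed in all tumors. Their 4 highest M/D tumors were also untreated 1, 3 and 4 and NAM-treated 2. S100a11 was 30781, 28468, 43386 and 58354 in untreated and 4868, 42071, 21179 and 20232 in NAM-treated M/D tumors. S100a10 was 31635, 24400, 26587 and 30843 and 17685, 32422.5, 19190 and 14452, respectively, and 6212 to 19754 in AT3 tumors. Prr9, next to Lor and picked out after its values were seen, was 212129 in NAM-treated 2 and at most 1539 elsewhere. Crnn and Tchhl1, picked out in the same way, were also highest there, at 7025 and 7761.

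**Figure D4:**
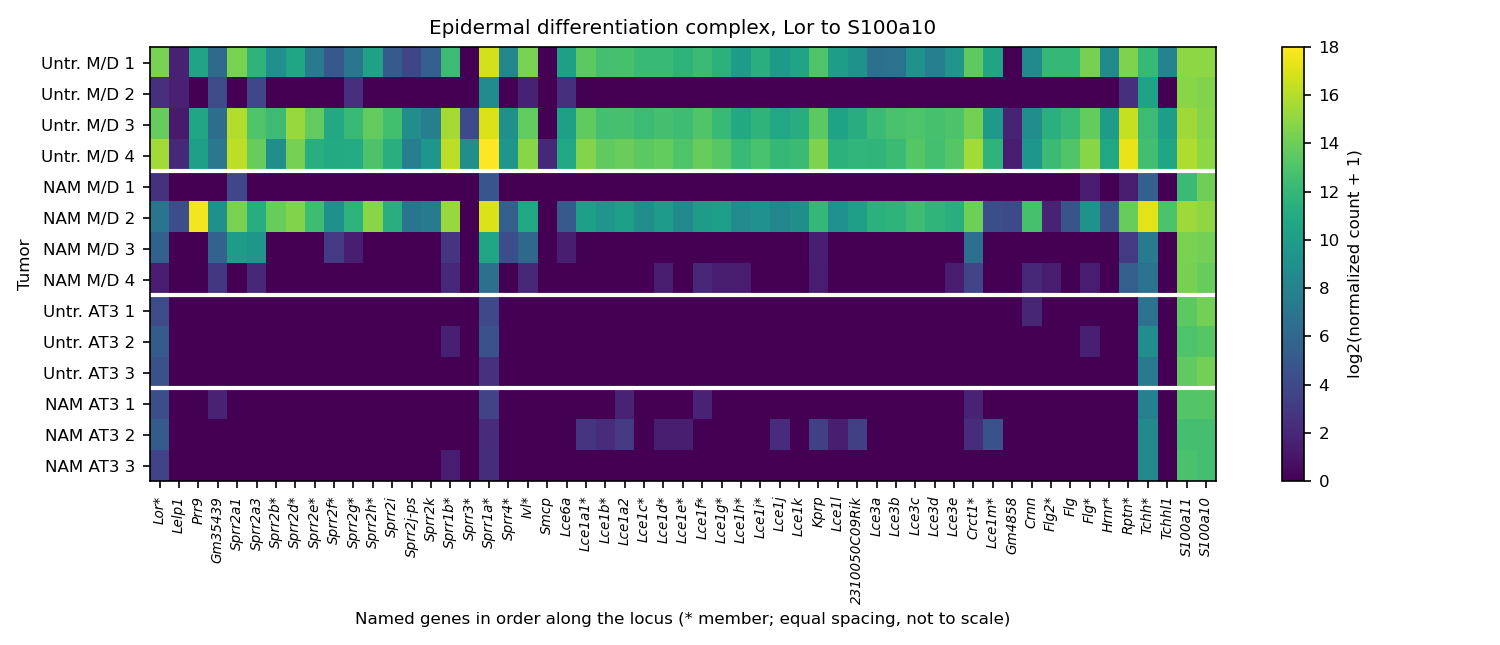
Columns are the named genes of the epidermal differentiation complex in their order along the chromosome (equal spacing, members starred), rows are the 14 tumors, and color is log2(normalized count + 1). Untreated M/D tumors 1, 3 and 4 and NAM-treated M/D tumor 2 are bright over almost the whole cluster, and S100a11 and S100a10 at the right end are bright in all 14 tumors.

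As the members varied together between tumors, promoters of 5 are shown, chosen to represent loricrin, involucrin and the Sprr genes and to hold the motifs searched. RefSeq promoters (GRCm38.p6) were at hand for 39 of the 54 members, and the 250 bases before the start are printed, 5′ to 3′ on the gene's strand. Capitals mark matches on either strand to TGANTCA (the AP-1 motif, bound by Fos and Jun proteins), TATAAA (the TATA box) and ATGCAAAT (the octamer, bound by POU factors). The matches do not overlap each other.
Lor, chr3:92083143-92083392, minus strand: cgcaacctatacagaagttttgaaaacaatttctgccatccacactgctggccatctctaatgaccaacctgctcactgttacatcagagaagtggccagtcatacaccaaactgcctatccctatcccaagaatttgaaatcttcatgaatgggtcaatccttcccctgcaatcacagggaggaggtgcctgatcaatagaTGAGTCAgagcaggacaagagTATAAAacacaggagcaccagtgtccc
Ivl, chr3:92573736-92573985, minus strand: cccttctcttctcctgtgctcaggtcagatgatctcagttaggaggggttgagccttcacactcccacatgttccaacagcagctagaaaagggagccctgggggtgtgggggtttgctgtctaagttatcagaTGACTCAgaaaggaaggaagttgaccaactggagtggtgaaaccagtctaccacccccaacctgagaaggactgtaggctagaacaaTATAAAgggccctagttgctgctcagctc
Sprr1a, chr3:92485882-92486131, minus strand: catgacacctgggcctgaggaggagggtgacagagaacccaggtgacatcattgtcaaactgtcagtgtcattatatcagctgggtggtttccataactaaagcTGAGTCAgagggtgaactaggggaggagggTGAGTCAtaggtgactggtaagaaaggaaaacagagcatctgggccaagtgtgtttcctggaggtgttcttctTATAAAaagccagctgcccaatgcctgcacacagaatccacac
Sprr2d, chr3:92338890-92339139, plus strand: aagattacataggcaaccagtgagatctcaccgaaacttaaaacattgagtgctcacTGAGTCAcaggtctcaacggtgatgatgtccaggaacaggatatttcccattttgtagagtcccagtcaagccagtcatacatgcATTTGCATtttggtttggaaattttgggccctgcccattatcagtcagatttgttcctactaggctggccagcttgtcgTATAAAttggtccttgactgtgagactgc
Sprr2h, chr3:92385435-92385684, plus strand: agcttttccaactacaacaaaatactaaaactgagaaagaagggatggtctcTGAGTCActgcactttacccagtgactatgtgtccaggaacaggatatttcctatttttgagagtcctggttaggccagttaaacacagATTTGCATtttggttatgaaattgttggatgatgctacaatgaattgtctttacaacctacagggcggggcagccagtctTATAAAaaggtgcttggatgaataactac

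The AP-1 motif began 48 bases before the start in Lor and 116 in Ivl, and Sprr1a had 2 matches, at 146 and 116. The TATA box began 27, 29 and 43 bases before the start in Lor, Ivl and Sprr1a and 29 in both Sprr2 promoters. The octamer began 108 bases before the start in Sprr2d and 109 in Sprr2h. Over the 43 promoters of the 39 matched members, TGANTCA was in 19 (44.2%), TATAAA in 18 (41.9%) and ATGCAAAT in 5 (11.6%), against 6.75%, 12.4% and 1.60% of all 32851 promoters over the same 250 bases. By gene, TGANTCA was found for 4 of 6 early and 12 of 33 late members, and all 5 Sprr2 members with a promoter held all 3 motifs. No other member held the octamer. These matches are a description of letters, and binding was not measured.

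NAM was then tested in the M/D tumors, with limma on log2(normalized count + 1) over 21700 genes. Of the 53 member rows, 9 fell and 0 rose at a limma p not above 0.05 before adjustment together with a change of 1.5-fold or more. Both levels follow the study's methods, which do not say whether p was adjusted, whereas its figure legend for these tumors describes the p values shown as adjusted. With adjusted p no member was called by limma in this comparison. Before adjustment, 3.19% of all genes were called lower. Those 9 were Krt1 (log2 fold change -9.34 ± 3.17, SE), Flg2 (-8.13 ± 2.57), Casp14 (-7.79 ± 3.22), Lor (-7.40 ± 2.82), Lce1m (-6.91 ± 2.49), Dmkn (-6.76 ± 2.50), Krt10 (-6.72 ± 2.56), Hrnr (-6.10 ± 2.36) and Klk8 (-5.40 ± 1.84). None held after Benjamini-Hochberg adjustment over all genes, where limma's adjusted p was 0.734 for each of the 9 and 0.00461% of all genes passed. With DESeq2 on the recovered reads, 12 rows were called lower (3.72% of all genes), 5 of them after adjustment, where 167 of 21700 genes passed. With edgeR's quasi-likelihood test 11 rows were called lower (2.97% of all genes), 0 after adjustment.

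All 53 fitted changes were negative, with a median log2 fold change of -5.65 against 0.01 over all genes tested, and 5 of the 53 rows had passed the filter on low values through the untreated group alone. The 2 count tools put that median at -3.20 and -3.17, with 4 rows above 0. In no row were the 4 untreated tumors separate from the 4 NAM-treated ones, whereas 4.43% of all genes tested were separated in 1 direction or the other. In an exact two-sided permutation test of 4 against 4, where p cannot go below 0.029, the 9 called members gave p = 0.0571 (Dmkn and Klk8) to 0.143. The count of 9 rested on single tumors. It was 44 without NAM-treated tumor 2 and 38 without untreated tumor 2, where 6.92% and 5.25% of all genes were called lower, and 3 without untreated tumor 1, 3 or 4 or NAM-treated tumor 1 or 4, and 4 without NAM-treated tumor 3. Krt1, Flg2 and Klk8 were called under each of these 8 omissions. Within experiment 1, which leaves out NAM-treated tumor 1, the count was 3 (2.33% of all genes) and the median -4.35, with all 53 changes negative and 0 rows without overlap.

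By role, 2 of 6 keratin rows, 2 of 24 envelope precursors, 2 of 5 S100-fused genes, 2 of 8 enzymes and 1 of 4 suprabasal proteins fell, and no regulator or desmosomal gene passed the thresholds. The counts by role and stage are small and are to be read against the 3.19% of all genes called lower. Their median log2 changes ran from -1.98 for the regulators to -6.75 for the S100-fused genes. By stage, 3 of 16 early and 6 of 37 late rows fell, with medians of -5.13 and -6.10. Without NAM-treated tumor 1, 1 keratin, 1 S100-fused gene and 1 enzyme fell, that is, 1 early and 2 late rows, where 2.33% of all genes were called lower. Krt16 (-5.56 ± 4.07), the Krt6 row (-5.46 ± 3.22) and Sprr1b (-6.03 ± 4.33) were not among the 9. Their SEs were larger than those of Hrnr (-6.10 ± 2.36) and Klk8 (-5.40 ± 1.84), which were called with changes of similar size. Tchh stood at -2.63 ± 2.32 by limma but at 3.14 by edgeR and 3.18 by DESeq2, and NAM-treated tumor 2 held most of its reads.

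Other genes of the cornification pathway, listed separately from the members, followed the same tumors. Over all genes, 3.19% were called lower and the median log2 fold change was 0.01, and the counts of these short lists are to be read against that. Of 36 further structural genes tested, 3 fell and 0 rose (median log2 fold change -3.68). In 30 the 4 highest M/D tumors were again untreated 1, 3 and 4 and NAM-treated 2. The 3 were Ly6d (-3.09 ± 1.11, SE), the sciellin gene Scel (-4.81 ± 2.09) and the filaggrin-processing protease Asprv1 (-5.46 ± 2.14). Of 20 genes of barrier lipids and proteases, 6 fell and 0 rose: Hal (-6.83 ± 2.19), which turns filaggrin-derived histidine into urocanic acid, the lipid transporter Abca12 (-5.87 ± 1.84), Tgm5, Lipn, Cers3 and Lipm (-5.10 to -3.20). Of 13 squamous regulators, 3 fell: Klf4 (-2.70 ± 1.00), Pou2f3 (-4.73 ± 2.00) and Hopx (-1.92 ± 0.74). Limma's adjusted p was 0.734 for each gene named here. Without NAM-treated tumor 1 the counts were 0 of 36, 3 of 20 (Abca12, Hal and Lipm) and 2 of 13 (Hopx and Barx2), where 2.33% of all genes were called lower. Pou2f3, a POU factor of the upper epidermis, was 1491, 9.78, 1453 and 2327 in untreated and 0, 23.1, 92 and 47.3 in NAM-treated M/D tumors. It was thus low in NAM-treated tumor 2, the tumor with the highest Sprr2h, and a link between Pou2f3 and Sprr2h was not tested. Klf4, needed for the skin barrier, was 13614, 2377, 19074 and 29245 and 888, 10187, 788 and 1421.

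Lists of other cell types were laid beside the score. No basal epithelial gene of 14 and no luminal gene of 16 passed the thresholds in M/D tumors. Basal genes summed to 385329 to 1200260 normalized counts in untreated and 49966 to 892883 in NAM-treated tumors, and luminal genes to 125904 to 416253 and 10086 to 260804. Luminal sums were highest in untreated tumor 2, then in NAM-treated tumors 3 and 4, the 3 tumors with the most negative late minus early values. Acta2, the smooth muscle actin of myoepithelium, was 19528, 181216, 37638 and 35102 in untreated and 4173, 20418, 153269 and 397128 in NAM-treated tumors, with its 3 highest values in those same tumors. The 12 leukocyte genes, none called, summed to 29648 to 424499 in untreated and 28090.5 to 209477 in NAM-treated tumors. Most of the high sums were S100a8 and S100a9, which both neutrophils and stressed keratinocytes express: S100a9 was 24150, 444, 261078 and 226774 and 586, 80816, 149 and 902, while among neutrophil genes Retnlg was 586, 65.2, 464 and 1159 and 79.8, 576, 245 and 214, with the same 4 highest tumors, and Ly6g did not exceed 26.3. Itgam, of myeloid cells, was 5249, 2413, 4275 and 6732 and 1918, 6804, 2996 and 2759.6, again with those 4 highest. Of 10 skeletal muscle genes, 1 rose (Myh4, 7.30 ± 2.86), and their sum was highest in NAM-treated tumor 4 (284911) and NAM-treated tumor 2 (91128), against 949 to 30663 in untreated tumors. Among 8 melanocyte and sebaceous genes tested 1 fell (Scd3), and none of 17 hair follicle, 12 precursor B cell or 8 fibroblast genes passed. Of all genes, 3.19% were called lower and 3.03% higher. Without NAM-treated tumor 1, 1 luminal gene fell (Cdh1) and 1 basal gene rose, and none of the 8 melanocyte and sebaceous genes fell. In that setting 2.33% of all genes were called lower and 2.85% higher. The part of these cell types in the member levels was not tested.

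In AT3 tumors the members were low and even. Scores were 2.27, 2.62 and 2.45 in untreated and 2.39, 2.95 and 2.30 in NAM-treated AT3 tumors, with early means of 5.37 to 6.43 and late means of 0.83 to 1.45. No read was found in any of the 6 tumors for 16 of the 53 rows, including Rptn, Ivl, Hrnr, Flg2 and all 6 Sprr2 members, and 33 rows stayed under 10 normalized counts in every tumor. Over 100 in every AT3 tumor were 7 rows, among them Sfn (4916 to 7808), Calml3 (927 to 2135), Trp63 (488 to 1567), Pkp1 (175 to 731) and Sbsn (185 to 618). The basal keratin Krt14 reached 5979 to 22216. NAM-treated AT3 tumor 2 held a few reads of Lce1 genes, with Lce1m at 22.6 against 0 in the other 5.

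For NAM in AT3 tumors, 17 of the 53 rows passed the filter, 14 of them in both groups. At the same thresholds 2 rose and 4 fell. Over the 19281 genes tested, 12.2% were called higher and 10.9% lower, so that 2 rows of 17 were close to the share of all genes, and the 4 that fell are few to read against it. Tgm1 was 20.3, 30.5 and 32.6 in untreated and 77.8, 47 and 62.8 in NAM-treated AT3 tumors, without overlap, a log2 fold change of 1.14 ± 0.41 (SE). Trp63 was 532, 677 and 488 and 561, 1143 and 1567, with overlap, a change of 0.84 ± 0.37.

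The 4 members that fell did not overlap between the groups. Klk8 went from 94.2, 79.2 and 105 in untreated to 49.8, 22.6 and 30.6 in NAM-treated tumors (-1.47 ± 0.40 on the log2 scale). Sbsn was 574, 618 and 507 and 346, 330.2 and 185 (-1.03 ± 0.30), Krt16 was 164, 224 and 229.5 and 85.1, 137 and 127 (-0.83 ± 0.31), and Calml3 was 2135, 1772 and 1651 and 927, 1252 and 982 (-0.82 ± 0.22). No call held after adjustment (0.00519% of all genes did), with limma's adjusted p between 0.166 and 0.203 for these 6. DESeq2 on the recovered reads called 7 rows, 3 of them after adjustment. Of all 19281 genes it called 2634 higher and 2415 lower, and 2047 passed after adjustment. EdgeR called 6 rows, with 0 after adjustment, and 2512 of all genes higher and 2147 lower. The exact permutation test of 3 against 3 cannot go below p = 0.1. Counting Sfn, which fell short of the thresholds (-0.44 ± 0.20), 6 of 17 rows had groups without overlap, against 22.6% of all genes tested.

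**Figure D5:**
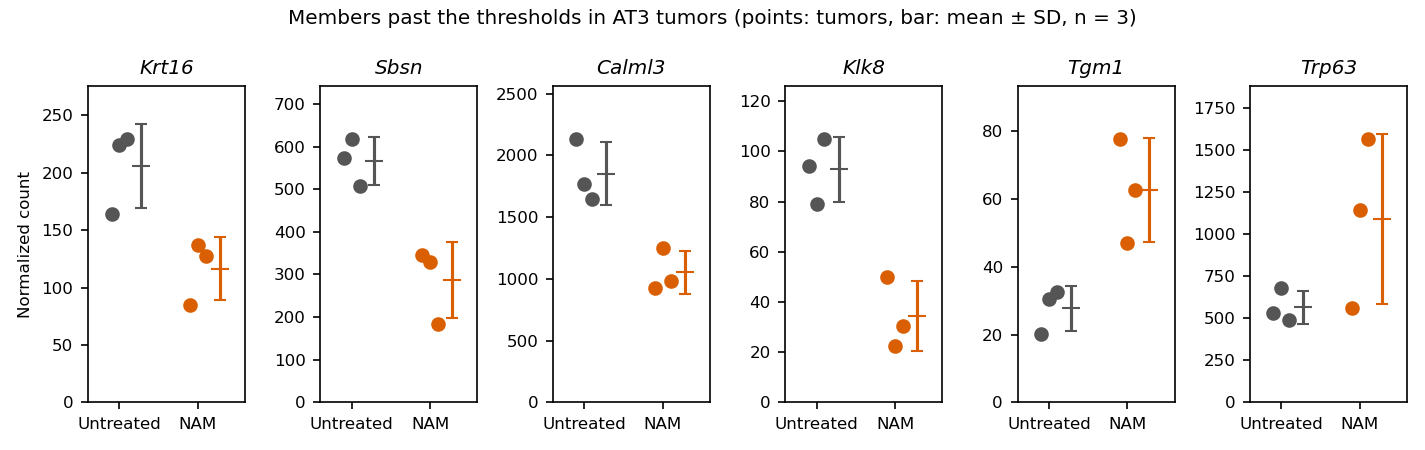
The vertical axis is the normalized count and each panel is 1 of the 6 members past the thresholds in AT3 tumors, with points for the 3 untreated and 3 NAM-treated tumors and bars for mean ± SD. Krt16, Sbsn, Calml3 and Klk8 are lower in all NAM-treated tumors than in any untreated one, Tgm1 is higher in all of them, and Trp63 overlaps.

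Klk8, Sbsn and Calml3 were called under each omission of 1 AT3 tumor. Tgm1 lost its call without untreated 1, NAM-treated 1 or NAM-treated 3, Trp63 without untreated 1 or 3 or NAM-treated 2 or 3, and Krt16 without untreated 2 or 3 or NAM-treated 1. Rescaling by the upper quartile, which moved the median of all genes from -0.05 to -0.26, left 0 members higher and 6 lower, with Tgm1 and Trp63 not called. Other pathway genes were called in both directions in AT3 tumors, where 12.2% of all genes were called higher and 10.9% lower, and the counts of these short lists are to be read against those shares. Of 20 further structural genes 3 rose and 6 fell, of 12 barrier genes 2 rose and 2 fell, and of 12 squamous regulators 4 rose (Grhl1, Zfp750, Notch1 and Notch3, 1.00 to 1.48) and 0 fell. Among the called genes of these 3 lists the largest changes were those of Abca12 (2.17 ± 0.33), Padi1 (-2.61 ± 0.68) and S100a14 (-1.85 ± 0.33). The basal keratins Krt14 and Krt17 fell (-0.79 ± 0.34 and -0.65 ± 0.21), whereas Itga6 and Mylk of the same list of 13 tested rose. Limma's adjusted p was 0.166 to 0.202 for the genes named here. Of the remaining lists, 2 of 16 luminal genes rose and 2 fell, 3 of 11 leukocyte genes and 2 of 8 fibroblast genes rose, 1 of 9 precursor B cell genes rose and 3 fell, 1 of 4 hair follicle genes fell, and no skeletal muscle or sebaceous gene passed. Their part in the member values was not tested.

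Between the models, untreated M/D tumors were compared with untreated AT3 tumors after rescaling to a common scale. All 53 rows were higher in M/D tumors, 49 at the same thresholds (33.5% of all 21530 genes) and 47 at an adjusted limma p of at most 0.05 (31.0% of all genes). Groups did not overlap in 22 rows, all higher in M/D, against 31.5% of all genes. The median log2 difference was 8.38, against 0.22 over all genes, and 10.22 when the 28 members with no read in any untreated AT3 tumor were set to the bound that 3 reads over the group allow. Since 37 of the 53 rows passed the filter through the M/D group alone, these counts describe the members and add no support. Without single tumors the 47 became 51 (untreated M/D tumor 2 left out) or 19 to 23 (any other tumor). Desmosomal genes and both regulators were separated in each case, for example Dsg3 (10.78 ± 1.16, SE) and Trp63 (2.87 ± 0.49). The effect of NAM itself differed between the models at these thresholds for 3 members, all with a more negative change in M/D tumors: Krt1 (-10.69 ± 3.86), Lce1m (-8.43 ± 3.23) and Flg2 (-8.13 ± 3.14). This is 5.66% of the members, below the 7.90% of all genes called in that direction, and limma's adjusted p was 0.253 to 0.275 for these 3. The count was 37 without untreated M/D tumor 2 and 42 without NAM-treated M/D tumor 2, where 9.13% and 9.57% of all genes were called. In AT3 tumors 36 of the 53 rows had not passed the filter, Lce1m and Flg2 among them, so for these rows the term rests mainly on the M/D tumors. The counts of this term therefore describe the members and add no support for a difference between the models.

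Among 17552 other named genes, 23 had the same order of levels over the 8 M/D tumors as the squamous score (Spearman's rho of 1). This is a description over tumors that share their libraries with the score. The 10 of these with the highest Pearson r were Aldh3b3, Tmem45a, Dusp22, Plcxd2, Bpifc, Limk2, Elovl4, Fam3b, Bicd2 and Ccdc64, with r of 0.998 to 0.941. Aldh3b3, an aldehyde dehydrogenase of lipid aldehydes, was 281, 3.26, 399.5 and 616 in untreated and 1.7, 166, 5.52 and 4.81 in NAM-treated M/D tumors. Elovl4, which makes the very long fatty acids of barrier ceramides, was 3305, 126, 5816 and 10104 and 14.4, 2227, 261 and 215.

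Some members are close copies of each other. Of the 75-base windows in the longest reference transcript, the length of 1 sequencing read, 35.4% of Krt6a and 37.3% of Krt6b also occurred in another gene of the families searched, as did 29.2% of Dsg1a. In the Lce1 members 0 to 13.5% did, in the Sprr2 members 0 to 5.41%. How reads of such windows were assigned is not given in the sources used here, so single values of Krt6, Dsg1a, Lce1 and Sprr2 genes are uncertain.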

How the data were processed

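RNA of 14 mouse tumors had been sequenced from polyA-selected libraries as paired reads of 75 bases. The authors deposited 1 table of normalized counts per gene, a signal obtained, per the methods and processing notes, by alignment with STAR 2.4.0 to mm10, counting over the constitutive regions of a gene annotation and division by DESeq2 size factors. The factors recovered from the table were close to those computed within the model for AT3 tumors, and for M/D tumors lay between those within the model and those over all 14 tumors, so levels of AT3 and M/D tumors set side by side on the deposited scale are a description, and the models were tested after rescaling. As 100% of values were whole multiples of 1 read (tolerance 0.01), reads were recovered from them. They came to 40936868 to 84178009 per tumor, a depth at which a member without reads lies under 3 reads in that tumor, with counting error only.

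Samples were grouped by their labels, the study counts its transcriptome samples in mice, and each tumor was taken as 1 sample. Comparisons used limma 3.58.1 (R 4.3.3) with a mean trend on log2(normalized count + 1), for genes with a mean of at least 10 in a group, and Benjamini-Hochberg adjustment over all genes tested. Genes were called where p before adjustment was not above 0.05 and the change was 1.5-fold or more. Fold changes on this scale understate the change of low genes. The comparison of models used values rescaled by TMM over the 14 tumors, and that of the NAM effects an interaction term over the 14 tumors on the deposited scale. Alternatives were edgeR 4.0.16 and DESeq2 1.42.0 on recovered reads, other pseudocounts, filters and scalings, and the omission of single tumors. The fits were tested on simulated data. Plots and counts used Python 3.11.15, pandas 2.3.3 and scipy 1.17.1.

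The members and all lists were chosen with earlier results of these data known. Values per tumor are given for the 3 highest members of each role, the members called in either NAM comparison and the 5 widest in range, and, among other genes, for those called, the 3 highest of a list and the 10 most like the score. Further genes were named after their values were seen. Promoters came from RefSeq.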

Additional observations from a re-analysis of the deposited data

Results flagged for a closer look

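Single tumors stood far from the rest of their group in 19 of 62 sets of 4 M/D tumors examined, where the gap to the nearest tumor, as a share of the whole range on the log2 scale, exceeded Dixon's 95% critical value for 4 samples. Chance flags about 1 in 20 such sets, and the genes are not independent of each other. Members picked for a wide range over the M/D tumors or for a call were among those examined, so that rate does not apply to them. In 12 of them untreated M/D tumor 2 was the lowest of its group. The shares were 0.928 for Flg2, 0.925 for Flg, 0.912 for Casp14, 0.885 for Klk7, 0.871 for Lor and Crct1, 0.865 for Sprr1a, 0.859 for Krt1, 0.856 for Dsg3, 0.839 for Krt10, 0.835 for Lce1m and 0.831 for Dsc1. In 6 of them NAM-treated M/D tumor 2 was the highest of its group, with 1.0 for Hrnr and Lce1m, 0.894 for Krt10, 0.844 for Flg, 0.834 for Tchh and 0.833 for the late score. Hrnr and Lce1m had no read in NAM-treated M/D tumors 1, 3 and 4, so any read in NAM-treated 2 gives a share of 1.0. Trp63 was lowest in NAM-treated M/D tumor 1, with a share of 0.984, in the tumor with the high precursor B cell genes.

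By limma's interaction term, 3 of 53 members (5.66%, against 7.90% of all genes in that direction) passed the unadjusted thresholds for a NAM effect that differed between the models, with adjusted p of 0.253 to 0.275. They were Krt1 (-10.689 on the log2 scale), Lce1m (-8.434) and Flg2 (-8.128). Flg2 had no read in any AT3 tumor, so that its difference is that of the M/D tumors. Lce1m had reads in 1 AT3 tumor alone, a NAM-treated one, and its change in the M/D tumors was -6.914. Krt1 was low in AT3 tumors, with 29 reads over the untreated and 75 over the NAM-treated ones. Its change was 1.35 ± 0.71 (SE) there and -9.341 in the M/D tumors.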

How the results depend on the processing

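The count of 9 members lower in NAM-treated M/D tumors was 33 with all 14 tumors in 1 fit, where 5.42% of all genes were called lower. It was 3 to 44 without single tumors (median log2 fold change -8.47 to -4.35) and 3 within experiment 1 (2.33% of all genes). The median was -3.20 with edgeR and -3.17 with DESeq2. Tchh had the opposite sign with edgeR (3.14) and DESeq2 (3.18). With the replicate number as a block 2 members were called (Flg2 and Krt1), and 2.41% of all genes were called lower. Tumors with the same number correlated at -0.44 to 0.11 in M/D and -0.16 to 0.26 in AT3. In M/D, only untreated tumor 1 correlated best with the NAM-treated tumor of its own number (0.110, against at most 0.0747 for the others). In AT3, untreated tumors 1 (0.126, against at most -0.085) and 2 (0.256, against at most 0.190) did so, and untreated tumor 3 did not. Whether the numbers pair the tumors was not settled.

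For NAM in AT3 tumors, no member was called with all 14 tumors in 1 fit (0 higher, 0 lower). There was 1 higher at a group mean of at least 50, 0 higher after scaling by the upper quartile, and 1 higher and 2 lower after removal of a trend with transcript length. Without single tumors 0 to 3 were higher and 3 to 5 lower. The median was 0.20 with no filter. Pkp1, not called, turned to -0.16 with the upper quartile, -0.36 with the length trend removed and between -0.44 and 0.58 without single tumors, and Lor, not called, to 0.15 with the length trend removed and between -0.58 and 0.16 without single tumors. The replicate block gave 7 calls in place of 6, with 0 members passing after adjustment. Of all 19281 genes, 1296 passed after adjustment with the block, against 1 without it.

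The median difference between the models was 13.41 with edgeR, 12.73 with DESeq2 and 7.54 to 11.10 without single tumors, the highest without untreated M/D tumor 2. The members with a more negative NAM effect in M/D numbered 2 to 42 without single tumors (median -8.54 to -4.31), with 37 without untreated M/D tumor 2 and 42 without NAM-treated M/D tumor 2 (median -8.10).

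AT3 scores of 2.27 to 2.95 became 1.59 to 2.51 with a pseudocount of 0.5, 3.83 to 4.16 with 5, 3.24 to 3.89 without Sprr2 and Lce1 genes and 0 to 1.53 as a median. Late minus early in AT3 became -5.83 to -4.80, -3.69 to -3.06, -4.48 to -3.52 and -7.51 to -6.03 in the same order. It was -3.45 in NAM-treated M/D tumor 3 without Sprr2 and Lce1 genes and -7.92 in untreated M/D tumor 2 as a median. The cause of these shifts was not tested. The other 266 summary values stayed within 1.5 times the reported count or moved by less than 1 SD, over the members for a median and over the tumors for a score. That tolerance takes in M/D counts of 8 to 13 and AT3 medians of -0.71 with a group mean of at least 50 and 0.00 with all 14 tumors in 1 fit. For single genes 659 values kept direction and call, while 74 single-gene values lost a call and 48 gained one. Where a member had no read, levels below the depth could not be measured.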
